A study of Mus musculus with 4 samples.

Results

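The epidermal growth factor (EGF) receptor system and the hepatocyte growth factor (HGF) system were followed in mouse liver through 10 genes. They are the receptors Egfr, Erbb2 and Erbb3, the ligands Egf, Tgfa, Hbegf, Areg and Ereg, and the ligand Hgf with its receptor Met. A gene was taken where a probe set of the array was annotated with exactly 1 symbol and this symbol was that of the gene. This held for 9 of the 10 genes, with 22 probe sets among 45101 on the array, while Areg is not analysed here. Where a gene had several probe sets, the one with the highest 4-array mean describes it, and the others are set beside it.

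The mice were 10 months old and fell into 4 groups that cross a carcinogen with a diet. The groups were control diet without diethylnitrosamine (DEN), a diet with 0.2% cholic acid (CA) without DEN, DEN followed by control diet, and DEN followed by the CA diet. DEN is a carcinogen that initiates liver tumours in mice, and CA is a primary bile acid. Each group was measured on 1 array, for which livers of 3 to 5 mice had been pooled, so no spread within a group exists, no test was made, and every difference is one between 2 pools. The series title speaks of tumours and the labels of livers, and the labels do not state the share of tumour tissue, the strain, or the dose and timing of DEN.

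EGF family ligands are made as membrane-bound precursors, are cut free by proteases such as ADAM17, and bind EGFR and its relatives, which pair up and switch on the ERK and PI3K cascades. HGF is secreted by non-parenchymal cells as an inactive chain, is cut by serine proteases, and binds the receptor tyrosine kinase MET on hepatocytes. Both systems are known for their part in liver regeneration, and TGF-alpha, encoded by Tgfa, is a known growth factor for hepatocytes.

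Levels are log2 RMA values, on which a difference of 1 is 2-fold. A gene was called expressed when its mean over the 4 arrays reached 4.86, the median over all probe sets. Of the 9 genes measured, 7 were expressed, namely Egfr, Erbb2, Erbb3, Tgfa, Hbegf, Hgf and Met. Egf and Ereg lay under this limit on all 4 arrays. Over the whole series 11651 of 18194 genes were expressed. Array medians lay between 4.84 and 4.86. The largest difference among hybridization controls, which reflect hybridization and scanning but not the mice, was 0.305 for the diets without DEN, 0.267 for the diets after DEN, 0.203 for DEN on control diet and 0.370 for DEN on the CA diet. Hepatocyte markers were high on every array, with Alb between 14.74 and 14.82. In bulk RNA, fewer cells of a type and less RNA per cell cannot be told apart. The comparisons share arrays in pairs, so their values are given side by side and not correlated.

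Of the ligands, Tgfa was highest in the DEN pool on control diet. Its level was 7.44 on control diet, 7.74 on the CA diet, 8.81 after DEN with control diet and 8.46 after DEN with the CA diet. Both DEN pools were above both pools without DEN. Tgfa was 2.58-fold higher in the DEN pool than in the control pool on control diet (log2 difference 1.37). On the CA diet the DEN pool was 1.65-fold higher (0.72). The diets differed by 0.30 without DEN and by -0.35 after DEN, compared with up to 0.305 and 0.267 for hybridization controls. The other 2 probe sets of Tgfa did not show this pattern. One stayed between 4.80 and 5.12 and the other between 4.71 and 4.85, both close to the expression limit.

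Hbegf encodes heparin-binding EGF-like growth factor, a membrane-anchored ligand that binds EGFR and ERBB4. Its level was 6.07 on control diet, 5.84 on the CA diet, 6.38 after DEN with control diet and 7.30 after DEN with the CA diet. The pool that received both treatments was highest. It was 2.74-fold higher than the CA pool without DEN (log2 difference 1.46) and 1.88-fold higher than the DEN pool on control diet (0.91). DEN on control diet differed by 0.31 and the CA diet without DEN by -0.23. The diet difference after DEN exceeded that without DEN by 1.14, and 0.807% of expressed genes lay at least this far from 0. The second probe set of Hbegf had levels of 4.25, 4.73, 6.17 and 6.68 in the same order of groups. It was also highest in the pool with both treatments, but it placed most of the difference with DEN on either diet (1.92 on control diet and 1.94 on the CA diet) and the diet differences at 0.48 and 0.50.

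**Figure D1:**
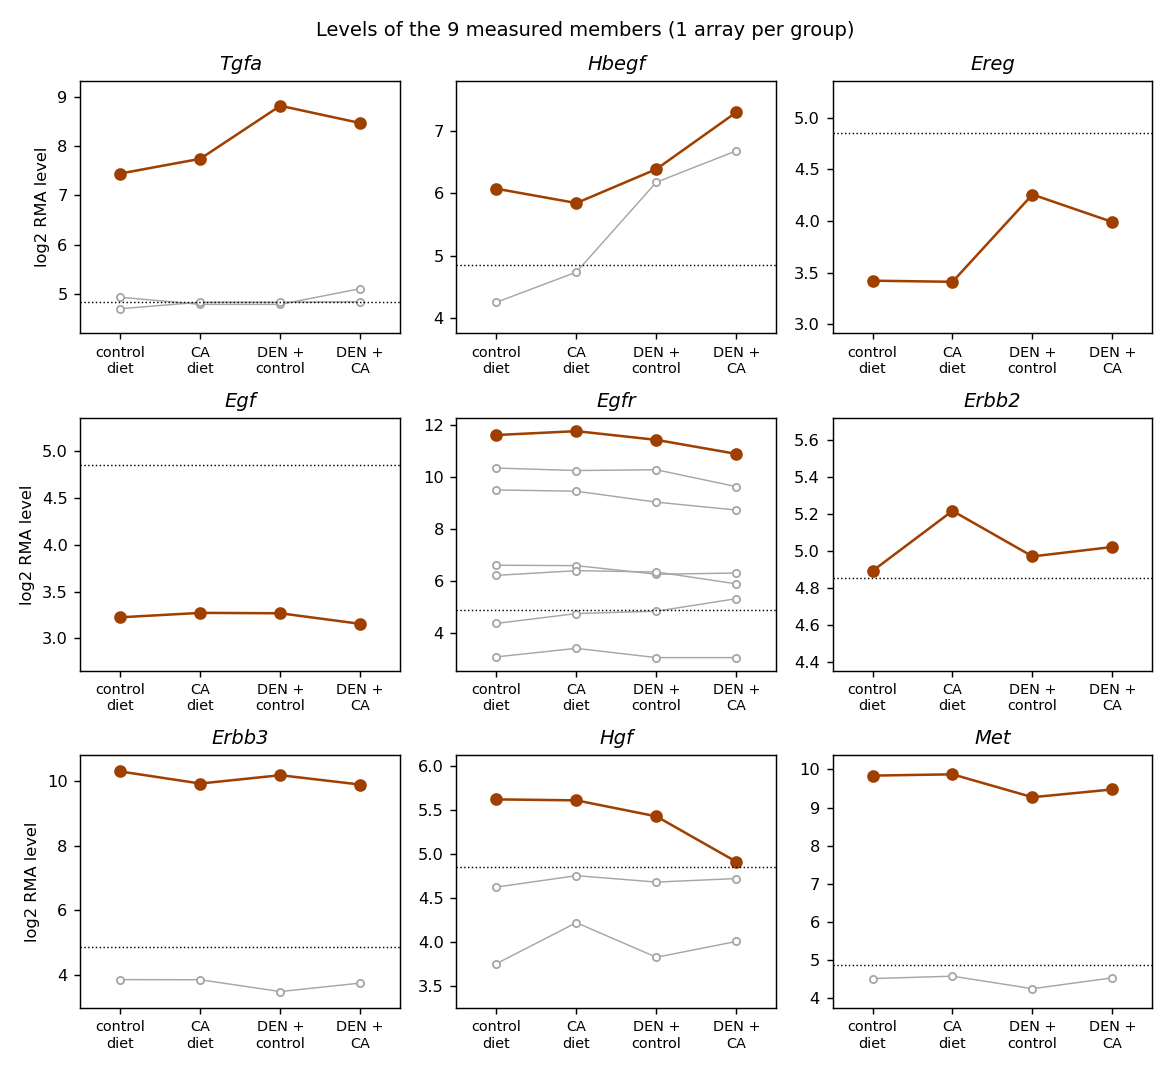
Log2 RMA level of the 9 measured genes on the 4 arrays, 1 array per group. Filled brown points are the probe set used, open grey points the other probe sets of the gene, lines only join points of a probe set, and the dotted line is the expression limit of 4.86. Tgfa is highest after DEN with control diet (8.81), Hbegf after both treatments (7.30), and Egfr is lowest after both treatments (10.89).

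Ereg, which encodes epiregulin, and Egf, which encodes the prototype ligand of the family, were under the expression limit. Ereg stood at 3.42, 3.41, 4.26 and 3.99 in the order control, CA, DEN and DEN with CA. Both DEN pools were above the others, but no fold is given between levels under the limit. Egf stood between 3.16 and 3.27 on all arrays, with no difference beyond 0.12.

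Egfr, the receptor that binds all the EGF-like ligands named so far, was lowest in the pool that received both treatments. Its level was 11.61 on control diet, 11.76 on the CA diet, 11.43 after DEN with control diet and 10.89 after DEN with the CA diet. After DEN the CA pool was 1.45-fold lower than the control diet pool (log2 difference -0.54), which 3.83% of expressed genes reached or passed in either direction. On the CA diet the DEN pool was 1.83-fold lower than the pool without DEN (-0.88, reached or passed by 8.26%). Neither difference reached 2-fold. The CA diet without DEN differed by 0.15 and DEN on control diet by -0.19, both within the range of the hybridization controls for that pair of arrays.

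Egfr was measured by 7 probe sets, of which 5 were expressed. On the CA diet all 5 expressed probe sets were lower with DEN than without it, by -0.28 to -0.88. After DEN 4 of these 5 were lower on the CA diet, by -0.31 to -0.65, and the fifth differed by 0.05. A sixth probe set, whose mean of 4.81 lay just under the limit, ran the other way. It stood at 4.35, 4.73, 4.83 and 5.31 in the order control, CA, DEN and DEN with CA. The remaining probe set stood between 3.04 and 3.40 on all arrays.

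The promoter of Egfr is shown because the motifs of Fos, Jun and Egr1 were searched for in it. These factors act downstream of this receptor and were above the control pool in every treated pool. The window held neither the AP-1 motif of Fos and Jun nor the EGR1 motif. The sequence is from RefSeq (GRCm38.p6), chr11:16751953-16752202 on the plus strand, the 250 bases before the annotated start, and capitals mark the match to the GC box GGGCGG on the reverse strand.
Egfr: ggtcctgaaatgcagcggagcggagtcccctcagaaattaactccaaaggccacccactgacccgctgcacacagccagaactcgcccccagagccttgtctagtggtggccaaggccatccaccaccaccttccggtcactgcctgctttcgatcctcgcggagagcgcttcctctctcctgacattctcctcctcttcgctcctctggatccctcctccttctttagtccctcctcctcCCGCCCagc

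Windows of the 250 bases before the start were on hand for 7 of the 10 genes, 9 windows in all, and both strands were searched. The AP-1 motif TGANTCA, bound by Fos and Jun dimers, was present in 1 of the 9, that of Met, and in 6.75% of all 32851 windows. The EGR1 motif GCGNGGGCG was in 0 of the 9 and in 4.70% of all windows. The GC box was in 4 of the 9 (Areg, Egfr, Met and Tgfa) and in 32.7% of all. The EGR1 motif can overlap a GC box. These matches describe letters in the windows and not binding.

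Erbb2 and Erbb3, co-receptors that pair with EGFR and with each other, differed little between the pools. Erbb2 stood at 4.89, 5.22, 4.97 and 5.02 in the order control, CA, DEN and DEN with CA, just over the expression limit on each array. Erbb3, which binds neuregulins and is expressed by hepatocytes, stood at 10.30, 9.93, 10.19 and 9.90. Both CA pools were below both control diet pools, by -0.37 without DEN and -0.29 after DEN, each little more than the largest hybridization control difference. The second probe set of Erbb3 lay between 3.49 and 3.86 and differed by less than 0.01 for the diets without DEN and by 0.26 after DEN.

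In the HGF system, Met was lower in both DEN pools. Its level was 9.84 on control diet, 9.87 on the CA diet, 9.27 after DEN with control diet and 9.48 after DEN with the CA diet. The DEN difference was -0.57 on control diet (1.48-fold lower, reached or passed by 16.1% of expressed genes) and -0.40 on the CA diet. The diets differed by 0.03 without DEN and by 0.20 after DEN. A second probe set of Met, under the expression limit, differed by -0.26 and -0.04 for DEN on the control and CA diets.

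Hgf, the ligand of MET, was lowest in the pool with both treatments. It stood at 5.62 on control diet, 5.61 on the CA diet, 5.43 after DEN with control diet and 4.91 after DEN with the CA diet. It was 1.43-fold lower on the CA diet than on control diet after DEN (-0.52) and 1.62-fold lower with DEN than without it on the CA diet (-0.70). The level after both treatments lay close to the limit of 4.86. The 2 other probe sets of Hgf, whose means lay under the limit, differed by 0.04 and 0.18 for the diets after DEN and by -0.03 and -0.21 for DEN on the CA diet.

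**Figure D2:**
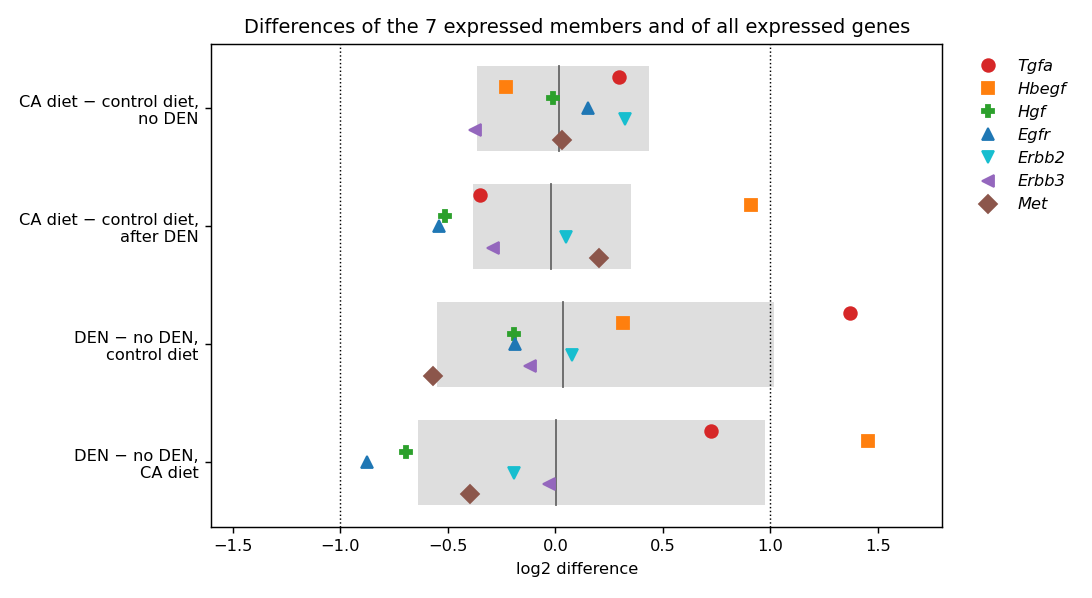
Log2 difference of the 7 expressed genes in the 4 comparisons of 2 arrays, as coloured symbols. Grey bars span the 5th to 95th percentile of all 11651 expressed genes, the grey line is their median, and dotted lines mark 2-fold; Tgfa (1.37) passes 2-fold for DEN on control diet and Hbegf (1.46) for DEN on the CA diet.

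Counted at 2-fold, few of the 7 expressed genes differed. For DEN on control diet, 1 of 7 was higher (Tgfa), beside 5.12% of all expressed genes, and 0 of 7 were lower, beside 0.901%. For DEN on the CA diet, 1 of 7 was higher (Hbegf), beside 4.75%, and 0 of 7 were lower, beside 1.75%. For the CA diet without DEN, 0 of 7 differed by 2-fold, beside 0.661% higher and 0.592% lower over all expressed genes. For the CA diet after DEN, 0 of 7 differed by 2-fold, beside 0.266% higher and 0.472% lower. For the difference between both diet differences 1 of 7 (Hbegf) reached 2-fold, beside 1.17% of expressed genes in either direction. With 7 genes, a count of 1 cannot be set apart from these shares.

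The median of the 7 genes was 0.03 for the CA diet without DEN (-0.01 with each array centred on its median), -0.12 for DEN on control diet (-0.28 with centred arrays), -0.29 for the CA diet after DEN and -0.19 for DEN on the CA diet. The medians over all expressed genes were 0.01, 0.04, -0.02 and 0.00 (0.00433 before rounding). With centred arrays they were -0.02 for the CA diet without DEN and -0.13 for DEN on control diet. Centring the arrays on their medians of expressed genes shifted DEN on control diet by -0.16 and the other comparisons by less than 0.1. Over all expressed genes it turned the split for DEN on control diet from 596 higher and 105 lower into 455 and 192.

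The 6 other ErbB ligands were described from a list of pathway genes. Of these, Btc, Nrg2 and Nrg4 were expressed, and Epgn, Nrg1 and Nrg3 were not. Btc, which encodes betacellulin, a ligand of EGFR and ERBB4, stood at 4.99, 5.60, 6.28 and 6.80 in the order control, CA, DEN and DEN with CA. It was 2.45-fold higher with DEN on control diet (1.29) and 2.31-fold higher with DEN on the CA diet (1.21). Its other probe set differed by 0.67 and 1.09 in these comparisons. Btc was highest in the pool with both treatments, as Hbegf was.

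Nrg4, a neuregulin that binds ERBB4, stood at 5.80, 5.66, 5.69 and 4.53. The pool with both treatments was set apart from the other 3, at least 1.78-fold lower than DEN alone (log2 difference -1.16) and at least 1.75-fold lower than the CA diet alone (-1.13). The other probe set of Nrg4 differed by -0.91 and -1.36. Nrg1, a ligand of ERBB3 and ERBB4 that is named here after its values were seen, passed the limit only after DEN with control diet (5.12), and stood at 3.47, 3.34 and 3.90 in the control, CA and DEN with CA pools. The receptor Erbb4, to which several of these ligands bind, stood between 2.18 and 2.40 on all arrays, under the limit.

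All 5 genes of ligand shedding were expressed, namely Adam10, Adam17, Rhbdf1, Rhbdf2 and the inhibitor Timp3. On the probe sets used, their differences for DEN on control diet were all above 0 (median 0.62), also after centring (0.46), and 1 of 5 reached 2-fold, beside 5.12% of all expressed genes. Rhbdf1 and Rhbdf2 had 1 probe set each. For each of the other 3 genes the direction changed between probe sets. The ranges were -0.38 to 0.45 for Adam10, -0.20 to 0.62 for Adam17 and -0.12 to 0.56 for Timp3. The gene that reached 2-fold was Rhbdf1, an inactive rhomboid that controls the maturation of ADAM17. Rhbdf1 stood at 6.22, 6.15, 7.54 and 6.93 in the order control, CA, DEN and DEN with CA. It was 2.51-fold higher with DEN on control diet and 1.72-fold on the CA diet. Adam17 encodes the main sheddase of TGF-alpha.

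Of the 8 proteases that can activate HGF or plasminogen in this list, 7 were expressed, and 1 of them reached 2-fold. Plat, tissue plasminogen activator, stood at 4.44, 4.25, 5.94 and 5.77, at least 2.12-fold higher with DEN on control diet and at least 1.89-fold on the CA diet. Its other probe set differed by -0.24 and 0.02. Hgfac, the HGF activator, stood at 9.74, 9.55, 10.56 and 10.22, with DEN differences of 0.82 on control diet and 0.67 on the CA diet. The list had a median of 0.13 for DEN on control diet, which changed sign to -0.04 with centred arrays. Hpn, which encodes the hepatocyte protease hepsin, differed by at most 0.19. Among the inhibitors of these proteases, Spint1 and Spint2 were expressed and did not reach 2-fold.

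Mst1, the macrophage-stimulating protein related to HGF, stood at 10.04, 10.01, 10.50 and 10.18. Its receptor Mst1r, a relative of Met, had a mean under the limit and stood at 4.47, 4.02, 5.15 and 5.13, with only the DEN pools above 4.86.

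**Figure D3:**
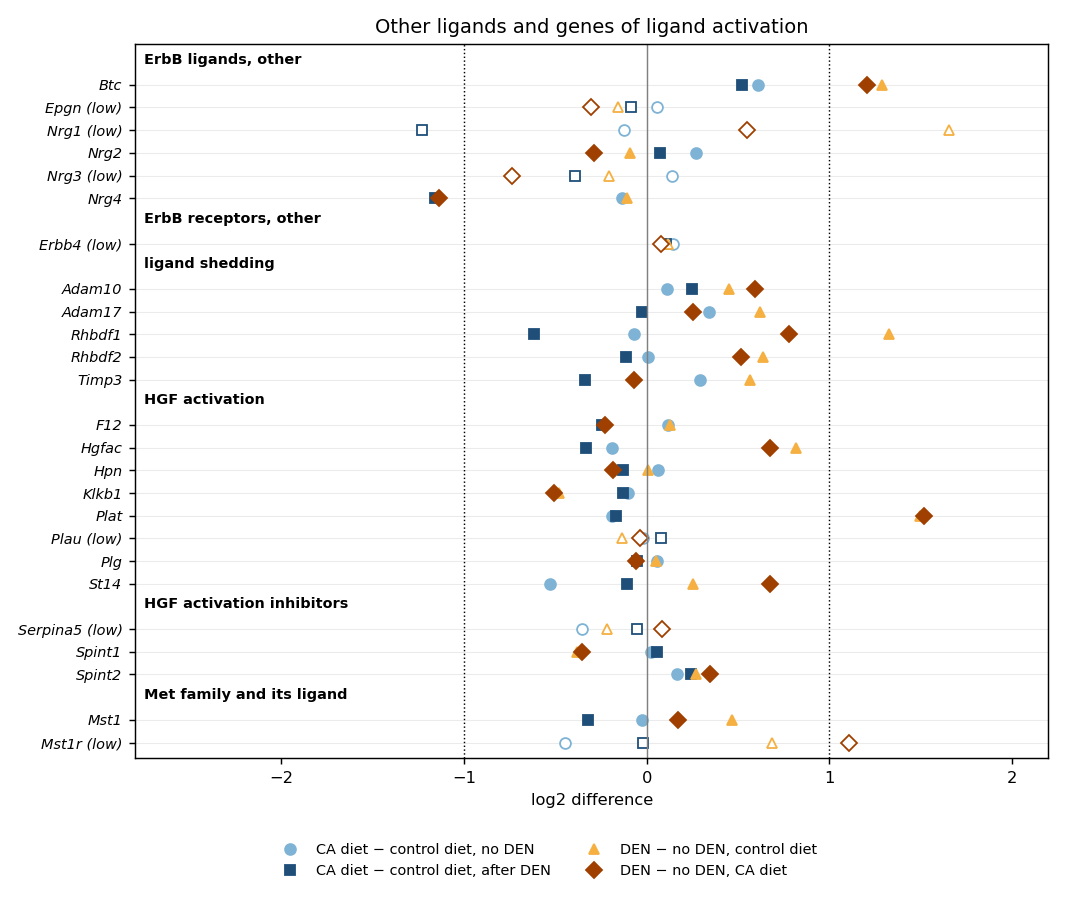
Log2 differences of the other ErbB ligands, Erbb4, and genes of ligand shedding and HGF activation in the 4 comparisons of 2 arrays. Each symbol is a difference of 2 arrays, open symbols and the word low mark genes under the expression limit, and dotted lines mark 2-fold; Btc, Rhbdf1, Plat and, under the limit on average, Nrg1 (1.65) pass 1 with DEN on control diet, Nrg1 also passes -1 for the CA diet after DEN (-1.23), and Nrg4 passes -1 in both comparisons that hold the pool with both treatments against 1 treatment.

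Downstream of the receptors, 16 of 21 adaptor and kinase genes were measured and all 16 were expressed. None reached 2-fold except Pik3r1, the regulatory subunit of PI3 kinase. It was 1 of 16 at least 2-fold lower for DEN on the CA diet, beside 1.75% of all expressed genes. Pik3r1 stood at 8.54, 9.01, 7.79 and 7.92 in the order control, CA, DEN and DEN with CA. It was 2.13-fold lower with DEN on the CA diet (-1.09) and 1.67-fold lower on control diet (-0.74). Its 4 probe sets were all lower, by -0.61 to -1.27 on the CA diet and by -0.24 to -0.89 on control diet.

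The list of receptor feedback and turnover genes, only some of which are induced through ERK, included several with differences over 2-fold. Products of the feedback genes dampen receptor signalling. Of 17 expressed genes of receptor feedback and turnover, 6 were at least 2-fold higher with DEN on control diet (5 with centred arrays), beside 5.12% of all expressed genes, and 0 were lower, beside 0.901%. With DEN on the CA diet 5 were higher (4 with centred arrays), beside 4.75%, and 0 lower, beside 1.75%. These were Dusp4, Dusp5, Dusp6, Spry2 and Spred2, and on control diet also Spred1. Several of these counts rest on the probe set used. The 8 probe sets of Spred1 ranged from -0.32 to 1.26 on control diet, and the 5 of Spred2 from -0.11 to 1.08 on control diet and from -0.03 to 1.01 on the CA diet. The CA diet had 3 higher without DEN (Socs3, Spry4 and Dusp4), beside 0.661%, and 0 after DEN, beside 0.266%, with 0 lower in either. Dusp4 stood at 4.43 on control diet, under the limit, so its fold there was only at least 1.66. The 4 probe sets of Spry4 ranged from 0.13 to 1.44 without DEN. The median of the list was 0.52 for DEN on control diet, 0.21 for DEN on the CA diet (0.13 with centred arrays), 0.29 for the CA diet without DEN and 0.14 for it after DEN.

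Dusp6, the phosphatase that acts on ERK, stood at 8.89 on control diet, 9.70 on the CA diet, 10.51 after DEN with control diet and 10.86 after DEN with the CA diet. It was 3.06-fold higher with DEN on control diet and 2.24-fold on the CA diet. Dusp4 and Dusp5, nuclear phosphatases of the same family, were at least 4.59-fold and 3.59-fold higher with DEN on control diet. With DEN on the CA diet they were 3.80-fold and 2.63-fold higher. For these 3 genes both DEN pools lay above both pools without DEN. Each was measured by 1 probe set.

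Spry2, an inhibitor of receptor tyrosine kinase signals, stood at 4.69, 4.69, 6.63 and 6.77, at least 3.42-fold higher with DEN on control diet and at least 3.76-fold on the CA diet. Its other probe set differed by -0.24 and -0.14. Errfi1, which binds and inhibits EGFR directly, stood between 13.05 and 13.21 on all 4 arrays. Its largest difference was -0.14, and its other probe set differed by up to -0.53 (DEN on the CA diet).

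Among genes that ERK is known to induce, 11 were expressed, Hbegf among them. With DEN on control diet 7 of 11 were at least 2-fold higher (5 with centred arrays), beside 5.12% of all expressed genes, and 0 lower. With DEN on the CA diet 5 were higher (Egr1, Ier3, Hbegf, Elk3 and Jun), beside 4.75%, and 0 lower. The 4 probe sets of Elk3 ranged from 0.01 to 1.15 there. The CA diet had 4 higher without DEN (Fos, Jun, Egr1 and Ccnd1), beside 0.661%, and 1 after DEN (Fos), beside 0.266%. Fos stood at 5.19, 9.02, 7.34 and 8.44 in the order control, CA, DEN and DEN with CA. It was highest on the CA diet alone, 14.2-fold above the control pool, and differed by -0.58 for DEN on the CA diet. Ier3, an early response gene, stood at 4.20, 4.94, 7.05 and 7.41, at least 4.59-fold higher with DEN on control diet. Etv5, an ETS factor under receptor tyrosine kinase control, differed by 1.09 with DEN on control diet and by 0.86 on the CA diet, but its 3 probe sets ranged from 0.12 to 1.09 and from -0.14 to 0.86.

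**Figure D4:**
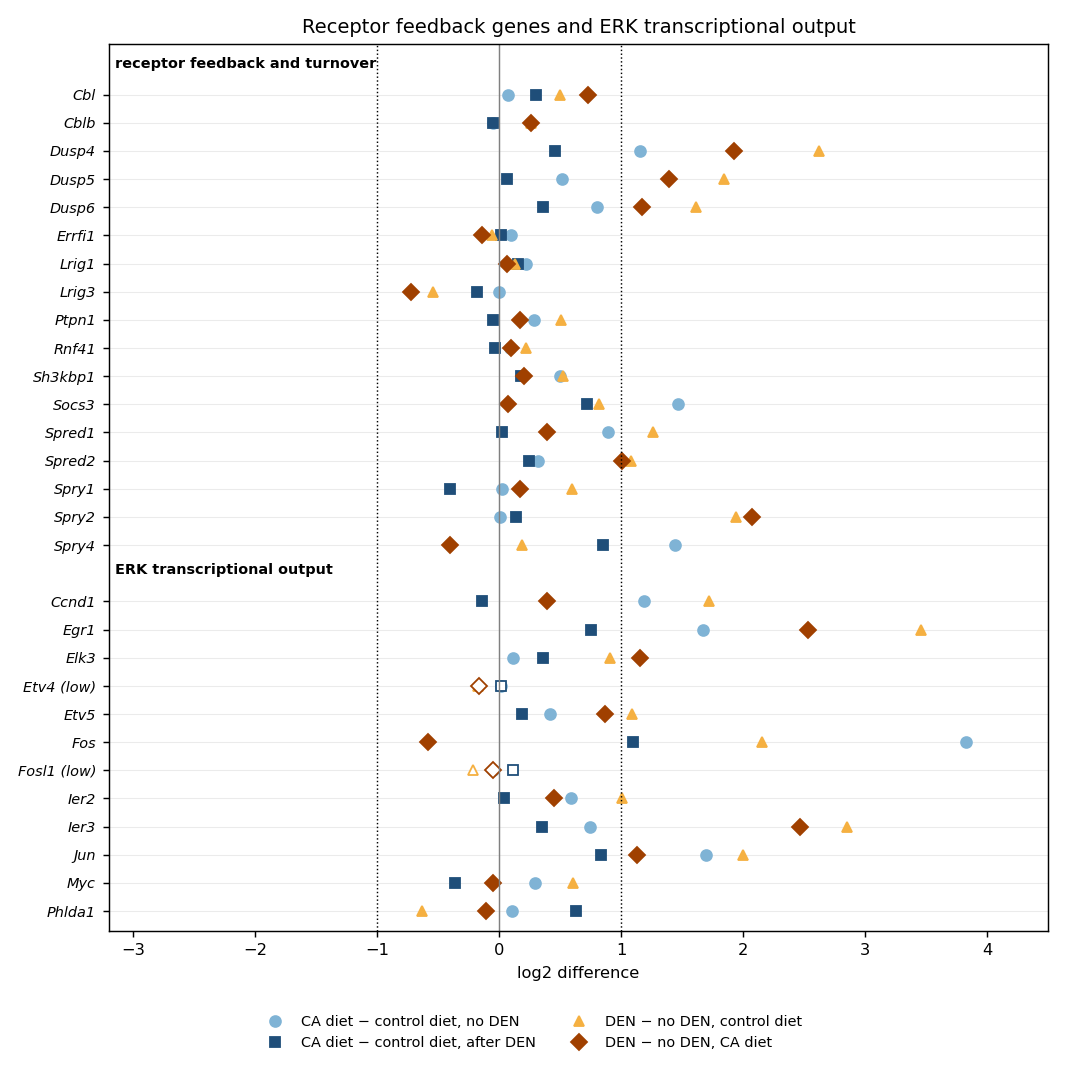
Log2 differences of genes of receptor feedback and turnover and of ERK transcriptional output in the 4 comparisons of 2 arrays. Each symbol is a difference of 2 arrays, open symbols and the word low mark genes under the expression limit, and dotted lines mark 2-fold; Dusp4, Dusp5, Dusp6 and Spry2 lie beyond 1 with DEN on both diets, while Errfi1 stays near 0.

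Markers of other cell types differed between the same pools. The mean log2 level over all 8 macrophage markers was 7.41 on control diet and 8.11 on the CA diet. After DEN it was 7.91 on control diet and 8.53 on the CA diet. The pool with both treatments, where Hbegf and Btc were highest, was also highest for these macrophage markers. The same held for the endothelial, cholangiocyte and neutrophil markers given below. The CA diet alone had a higher macrophage mean than DEN with control diet, and lower Hbegf and Btc. Whether macrophages had a part in the levels of Hbegf and Btc was not tested. The 10 markers of stellate cells and fibroblasts, cells known to make HGF, had means of 7.35, 7.41, 7.93 and 7.77. They did not move together. For DEN on control diet 6 of these markers were above 0 and 4 below. Acta2 and Col3a1 differed by 1.94 each, Lrat by -0.41 and Hand2 by -0.48. The 8 endothelial markers had means of 6.76, 6.82, 7.12 and 7.27, with Pecam1 under the limit. For cholangiocytes 7 of 9 markers were measured, with means of 4.10, 4.32, 5.59 and 5.75, while Krt7, Krt19, Cftr and Muc1 were under the limit and Tspan8 carried most of the difference (3.69, 3.92, 11.38 and 11.75). The 8 hepatocyte markers had means of 13.84, 13.89, 13.69 and 13.51, lowest in the pool with both treatments, where Egfr and Hgf were also lowest. Tat carried most of the difference between the DEN pools (11.81 and 10.57), while Alb was highest in the pool with both treatments (14.82).

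Among markers of immune cells other than macrophages, 7 of 8 neutrophil markers had means of 4.82, 5.06, 5.35 and 5.50, with Mpo, Elane, Camp and Ngp under the limit. The measured T and NK cell markers (6 of 8) had means of 4.92, 4.88, 5.38 and 5.34, with Cd3g, Nkg7 and Gzma under the limit. The 3 expressed T and NK cell markers did not share this rise with DEN. On control diet 0 of them were above 0 and 3 below (median -0.11), and on the CA diet 1 was above and 2 below (median -0.02). The measured B and plasma cell markers (5 of 6) had means of 4.79, 4.82, 5.45 and 5.30, with Cd79a, Cd79b and Ms4a1 under the limit. The 6 markers of mast cells and basophils had means of 4.65, 4.57, 4.38 and 4.48, with Cpa3, Mcpt4, Ms4a2 and Mcpt8 under the limit. The part of any of these cell types in the differences of the ligands and receptors was not tested.

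The genes whose pattern was most like that of Tgfa and Hbegf were found over all expressed genes as those nearest in their 3 log2 differences from the control array. For Tgfa these were Jpt1, Scara3 and Tmc5, at distances of 0.12, 0.13 and 0.14. For Hbegf they were Ifi47, Bok and Zfp677, at larger distances of 0.28, 0.30 and 0.31. Ifi47 is an interferon-induced GTPase and Bok a BCL2 family member. A likeness over 3 differences from 4 arrays describes these values only.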

How the data were processed

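Liver RNA of 4 groups of mice was measured on 1 Affymetrix array per group, each with pooled RNA. The deposited log2 expression values come from RMA, for which the submitters' processing notes name Partek 6.5, and the RMA options are not stated there. RNA was labelled with the FlashTag Biotin HSR kit, per the labels. Any alignment of the arrays in RMA would hide a change common to most genes. The deposited arrays did not share an identical distribution, and quantile normalization was among the alternatives. Of 45101 probe sets, 34958 had 1 gene symbol, 932 several and 9211 none in the platform annotation supplied with the values, and only those with 1 symbol were named.

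Differences of 2 log2 values were computed in Python 3.11.15 with pandas 2.3.3 and counted from 2-fold on. A fold against a level under the limit was computed with that level raised to the limit and written as "at least". With 1 array per group no test was made, and the number of arrays limits the precision. The steps were tested on simulated data. The genes, 9 pathway lists and 9 marker lists were chosen with earlier results of these data known. Beyond the 10 genes, the text names list genes at least 2-fold different in a comparison (at most 4 per list, and short lists whole), with other list genes shown as values for their known role and so named after their values were seen. For each of the 10 genes that passed 2-fold, the 3 expressed genes nearest by Euclidean distance were named. Alternatives covered the filter, the threshold, the scaling, the choice of probe set and low values.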

Additional observations from a re-analysis of the deposited data

Results flagged for a closer look

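Diet differences that ran in opposite directions without and after DEN, and lay at least 2-fold apart, were looked for among 68 expressed genes of the 10 and of the pathway lists. Of these 68, 22 ran in opposite directions (32.4%, beside 41.5% of all expressed genes), and 2 also lay 2-fold apart (2.94%, beside 0.764%). The difference was not tested, since each group is 1 array.

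Hbegf differed between the diets by -0.23 without DEN and by 0.91 after DEN, 1.14 apart. On its second probe set both diet differences were above 0 (0.48 and 0.50) and lay 0.02 apart.

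Ccnd1, the cyclin of entry into the cell cycle and a target of ERK signalling, differed between the diets by 1.19 without DEN and by -0.14 after DEN, -1.33 apart. The difference after DEN lay within that of the hybridization controls (up to 0.267), and over its 3 probe sets it ranged from -0.14 to 0.16, so the opposite direction turns on the probe set. Its level was 7.20 on control diet and lay between 8.38 and 8.91 in the 3 treated pools.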

How the results depend on the processing

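No filter, low values raised to the limit, quantile normalization and median centring of the arrays left the counts of the 10 genes past 2-fold unchanged in all 5 comparisons. A filter at the upper quartile (6.63) removed Hbegf by its construction, leaving 0 genes for DEN on the CA diet and 0 for the difference between the diet differences. At 1.5-fold, 1 gene passed for the CA diet after DEN (Hbegf, beside 3.11% of expressed genes), 4 for DEN on the CA diet (Egfr, Hbegf, Hgf and Tgfa, beside 16.3%) and 3 for the difference between the diet differences (Egfr, Hbegf and Tgfa, beside 5.43%). With every probe set counted alone, 2 of 13 expressed probe sets passed for DEN on control diet (beside 5.18% of all) and 2 for DEN on the CA diet (beside 5.70%). With the probe set of largest spread, 2 genes passed for DEN on control diet (Hbegf and Tgfa, beside 7.90%) and 0 for the difference between the diet differences. With the mean over probe sets that count was also 0, and the gene past 2-fold for DEN on control diet was Hbegf (1.12), not Tgfa (0.45).

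Of 225 single values recomputed, 21 moved by more than the largest hybridization control difference of the comparison and 0 called values changed sign. Both scalings moved 0 of 90 values. The choice of probe set moved 19 of 90, among them Egfr, which with its probe set of largest spread stood at 0.57 and not -0.88 for DEN on the CA diet. With this choice Egfr also changed sign for the CA diet after DEN (0.48 and not -0.54). Hbegf changed sign for the CA diet without DEN (0.48 and not -0.23). The number of arrays and signal near background limit these results: no fold can be given for Egf and Ereg, and the other probe sets of Tgfa lay near the limit. The cause of the disagreement between probe sets was not tested.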

Other observations

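Some probe sets held exactly the same value on 2 or more arrays. This was so for 3 of the 22 probe sets of the 10 genes (both unused probe sets of Tgfa and 1 of Egfr), for 2.11% of expressed probe sets and for 7.52% of those under the limit. One Tgfa probe set stood at 4.80 on both the CA array and the DEN array with control diet, and the other at 4.84 on the same pair. The cause of these ties was not tested.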
